A study of Mus musculus with 3 samples.

Results

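Amino acid transporter genes were read in 3 populations of mouse bone cells, sorted by the surface markers PDGFRα and Sca-1 and profiled on 1 Affymetrix array each. The members are all probe sets with a single gene symbol of the Slc1a, Slc7a, Slc36a, Slc38a or Slc43a families, together with Slc3a1, Slc3a2, Slc6a6, Slc6a9, Slc6a15 and Slc16a10. They are 97 of 45101 probe sets and stand for 44 of 18193 named genes. The rule selects by gene name and takes no measured value, but it was written with earlier results of these data known. The groups are labelled PDGFRa(+) Sca-1(+), PDGFRa(+) Sca-1(-) and PDGFRa(-) Sca-1(-), and are called double-positive, single-positive (for PDGFRα) and double-negative cells below. All came from C57BL/6 mice, from collagenase-treated femur and tibia, and all had first been depleted of cells with CD45, CD31 or Ter119, which mark blood, endothelial and erythroid cells. The labels call them endosteal cells and give no age, sex, treatment or number of animals. A single array stood for each population, so differences could not be tested and a ratio describes a pair of arrays.

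Amino acid transporters carry amino acids across the cell membrane or out of the lysosome. Some work alone, driven by sodium or proton gradients, and others are exchangers in which a light chain of the Slc7 family is held at the surface by a heavy chain, Slc3a2 or Slc3a1. Cells that build collagen and cartilage matrix need large supplies of glycine, proline and glutamine, and amino acid uptake also feeds mTORC1, the kinase complex that couples nutrients to growth. In osteoblasts, glutamine and proline uptake are known to serve matrix production.

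Signals are MAS5 probe set intensities on a linear scale, in arbitrary units. A floor of 93.2, the mean of the 3 array medians, stands in for detection calls, and a gene is represented by its brightest probe set. A ratio against a signal under the floor is a bound, written "at least". The smallest ratio counted as a difference is 2-fold. Signals of different genes are not compared, because probes differ in brightness. In bulk samples, fewer cells of a type and less RNA per cell cannot be told apart.

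Markers were checked first. Pdgfra was 12846 in double-positive, 2420.4 in single-positive and 586 in double-negative cells, above the floor in the population labelled PDGFRα−. Ptprc (CD45) and Pecam1 (CD31) were under the floor on all 3 arrays, while Ly6a, which encodes Sca-1, is not analysed here. Cartilage markers were bright in the Sca-1− populations: the summed signal of 7 of them was 13684 in double-positive, 150120.0 in single-positive and 116109.7 in double-negative cells. The 5 osteoblast markers summed to 16448 in double-positive, 95532 in single-positive and 41690.2 in double-negative cells. The 4 osteocyte markers summed to 2437 in double-positive, 25017 in single-positive and 1430.1 in double-negative cells, although Sost and Mepe lay under the floor on all 3 arrays. The 6 fibroblast markers summed to 82895 in double-positive, 5009 in single-positive and 1122 in double-negative cells. The label of endosteal cells thus covers populations with strong cartilage signal. The 5 dividing-cell markers summed to 1526 in double-positive, 1221 in single-positive and 7839 in double-negative cells. The 7 erythroid markers summed to 1405 in double-positive, 2352 in single-positive and 7746 in double-negative cells, with Alas2 under the floor throughout. Most of the erythroid sums came from Tfrc, with 1063 in double-positive, 1752 in single-positive and 6574 in double-negative cells. The 8 neutrophil precursor markers summed to 2748 in double-positive, 3116 in single-positive and 631 in double-negative cells. Signal at the 3' end of Actb over that at its 5' end was 4.65 on the double-positive, 2.63 on the single-positive and 2.99 on the double-negative array. For Gapdh it was 4.73 on the double-positive, 3.54 on the single-positive and 3.93 on the double-negative array.

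Of the 44 transporter genes, 25 were above the floor in double-positive cells, 31 in single-positive cells and 30 in double-negative cells. Of all genes, 59.6% were above it in double-positive, 60.7% in single-positive and 60.6% in double-negative cells. By probe set, 48 of 97 were above the floor in double-positive cells, 57 in single-positive cells and 56 in double-negative cells, against 53.8%, 55.4% and 55.1% of all probe sets with a single symbol on the same arrays. In all, 33 transporter genes were above the floor on at least 1 array, where 67.1% of all genes were, and 23 on all 3, where 53.6% were. The array of double-positive cells was the brightest for 8 of the 33, that of single-positive cells for 10 and that of double-negative cells for 15. Any difference counts here, however small, and the brightest array was not counted over all genes.

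**Figure D1:**
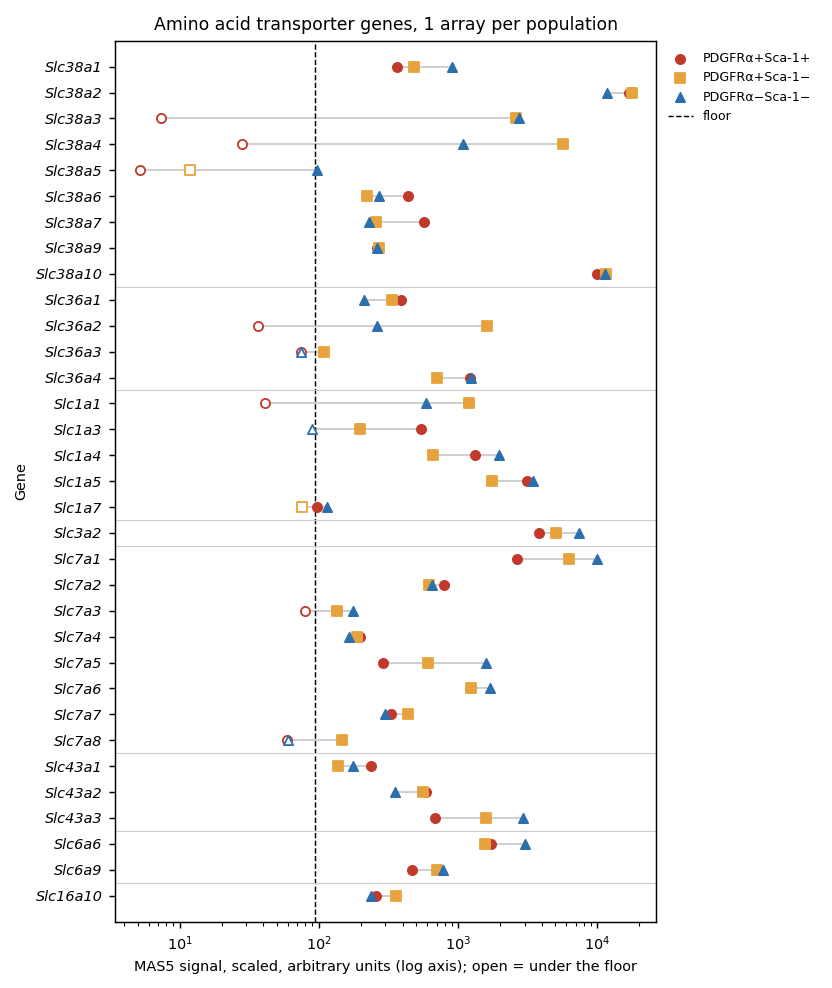
Signal of each of the 33 transporter genes above the floor on at least 1 array (rows, grouped by family), on a log axis in arbitrary units. Each marker is 1 array, open markers lie under the floor of 93.2 (dashed line), and grey lines join the lowest and highest array. Slc38a3, Slc38a4, Slc36a2 and Slc1a1 show open double-positive markers far to the left of the filled ones. The legend gives double-positive cells as PDGFRα+Sca-1+, single-positive as PDGFRα+Sca-1− and double-negative as PDGFRα−Sca-1−.

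Of 32 transporter genes compared, 7 were at least 2-fold lower in double-positive than in single-positive cells and 3 were higher. Of all 11855 genes compared, 11.3% were lower and 14.9% higher, 26.2% in either direction. The median log2 ratio was −0.14 over the transporters and 0.07 over all genes. The lower genes were Slc38a4, Slc38a3, Slc36a2, Slc1a1, Slc7a1, Slc43a3 and Slc7a5, and the higher ones Slc1a3, Slc38a7 and Slc1a4. Between single-positive and double-negative cells fewer transporters differed: of 33 compared, 4 were higher in single-positive cells (Slc36a2, Slc38a4, Slc1a3, Slc1a1) and 2 lower (Slc1a4, Slc7a5). Over all 11675 genes compared, 4.82% were higher and 5.63% lower, 10.4% in either direction, and the medians were −0.06 for the transporters and −0.03 for all genes. Between double-positive and double-negative cells, 8 of 31 were lower in double-positive cells and 2 higher, while of all 11843 genes 12.2% were lower and 14.5% higher, 26.6% in either direction. The lower ones were those of the comparison with single-positive cells and Slc38a1, and the higher ones Slc1a3 and Slc38a7. The median was −0.19 for the transporters and 0.03 for all genes. The comparisons share arrays and are not independent of each other.

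**Figure D2:**
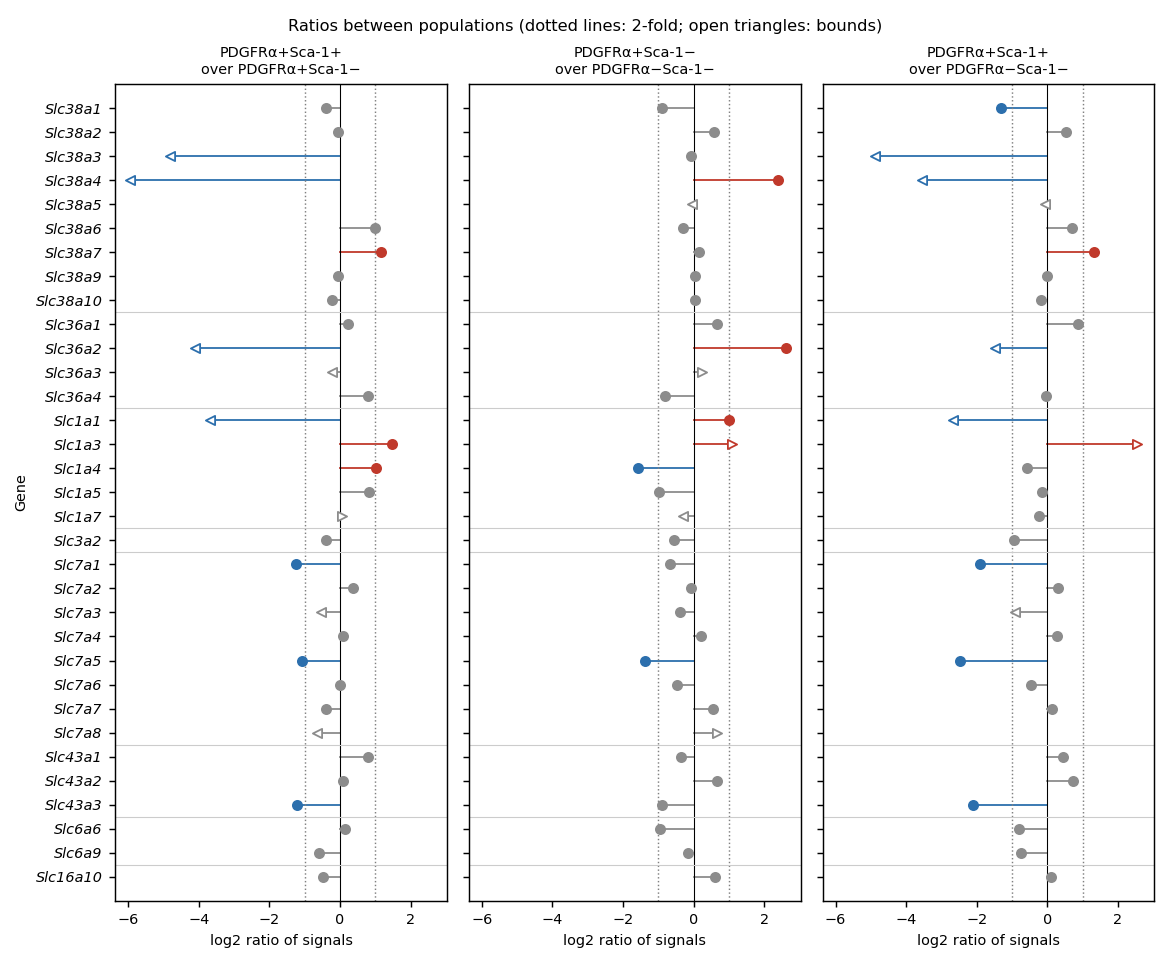
Log2 ratio of signals for each transporter gene in the 3 comparisons. Filled circles are ratios measured on both arrays, open triangles are bounds against the floor, dotted lines mark 2-fold, and red and blue mark genes at least 2-fold higher and lower. The longest bars point left in both panels with double-positive cells on top and belong to Slc38a3 and Slc38a4.

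The Slc38 family held the widest differences. Slc38a4, a sodium-coupled carrier of small neutral amino acids (system A), had a signal of 28.3 in double-positive, 5704 in single-positive and 1083 in double-negative cells. It was thus under the floor in the first population, and at least 61.2-fold lower there than in single-positive cells, at least 11.6-fold lower than in double-negative cells. The floor sets the size of such bounds: for double-positive over single-positive cells the log2 bound of Slc38a4 was −7.12 with the floor at the 33rd percentile, −5.94 as given and −4.48 at the 67th. The bounds of Slc38a3, Slc36a2 and Slc1a1 moved alike. Between the Sca-1− populations it was 5.27-fold higher in single-positive cells. Its other probe set had the same order, with log2 ratios of −4.36 as a bound for double-positive over single-positive and 1.63 for single-positive over double-negative. Slc38a3, a carrier of glutamine, asparagine and histidine (system N), was 7.29 in double-positive, 2601 in single-positive and 2728 in double-negative cells. It separated the Sca-1+ cells from both others, being at least 27.9-fold lower than in single-positive and at least 29.3-fold lower than in double-negative cells, but not the Sca-1− populations from each other (log2 ratio −0.07). The second Slc38a3 probe set was under the floor on all arrays.

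The remaining system A genes showed smaller differences. Slc38a1 was 365 in double-positive, 482 in single-positive and 899 in double-negative cells, 2.46-fold lower in double-positive than in double-negative cells. Its other probe set gave a log2 ratio of −1.26 there, against −1.30 for the brightest, but for double-positive over single-positive cells the probe sets had opposite signs, at 0.57 and −0.40. For single-positive over double-negative cells the brightest gave −0.90 and the other −1.84. Slc38a2, known to be induced when amino acids are scarce, was 16936 in double-positive, 17682 in single-positive and 11792 in double-negative cells, within 2-fold in all comparisons. Its dimmer probe sets differed from this: log2 ratios of single-positive over double-negative cells ran from 0.58 for the brightest to 2.27. For double-positive over single-positive cells the dimmest gave −2.92 against −0.06. Whether Slc38a2 differed between populations therefore depends on the probe set.

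Lysosomal and less characterised Slc38 genes were even across the populations or highest in double-positive cells. Slc38a7, a lysosomal exporter of glutamine and asparagine, was 574 in double-positive, 256 in single-positive and 229 in double-negative cells, 2.24-fold and 2.51-fold higher in double-positive cells than in the 2 others. Slc38a6 had the same highest array, with 440.1 in double-positive, 221 in single-positive and 271 in double-negative cells, and its ratio of 1.99-fold for double-positive over single-positive cells was just short of 2-fold. Slc38a9, the lysosomal arginine sensor that signals to mTORC1, was 259.8 in double-positive, 268 in single-positive and 259.9 in double-negative cells. Slc38a10 was 9939 in double-positive, 11547 in single-positive and 11354 in double-negative cells. By their brightest probe sets both were close to even, with the largest log2 ratio at −0.22 for Slc38a10 in double-positive over single-positive cells. Of 6 Slc38a9 probe sets compared, 1 gave a log2 ratio of 1.12, a bound, for double-positive over single-positive cells, and 1 of 6 Slc38a10 probe sets gave −1.86. Slc38a5, another system N gene, barely passed the floor, with 5.19 in double-positive, 11.9 in single-positive and 97.1 in double-negative cells.

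Proton-coupled Slc36 genes included 1 wide difference. Slc36a2, a carrier of glycine, alanine and proline, was 36.9 in double-positive, 1600.3 in single-positive and 263 in double-negative cells. It peaked in single-positive cells, 6.09-fold above double-negative cells, and in double-positive cells was at least 17.2-fold lower than in single-positive and at least 2.82-fold lower than in double-negative cells. Only 1 probe set measures it. Slc36a1, known from the lysosome and gut, was 387 in double-positive, 333 in single-positive and 212 in double-negative cells. Slc36a3 lay near the floor, with 74.1 in double-positive, 109 in single-positive and 74.1 in double-negative cells. Slc36a4, a carrier of proline and tryptophan, was 1217 in double-positive, 700.0 in single-positive and 1238 in double-negative cells. Slc36a1 and Slc36a4 were within 2-fold in all comparisons, and Slc36a4 was lowest in single-positive cells, where Slc36a2 was highest.

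Among the Slc1 carriers, the glutamate transporters went in opposite directions. Slc1a1, which takes up glutamate and cysteine, was 40.9 in double-positive, 1189 in single-positive and 590.1 in double-negative cells. It was at least 12.8-fold lower in double-positive than in single-positive cells and at least 6.33-fold lower than in double-negative cells. All 3 of its probe sets were under the floor in double-positive cells, so their ratios are bounds. In the first of these comparisons all 3 bounds were past 2-fold, at log2 ratios from −3.67 to −1.07. In the second, 1 of 3 was −0.34, a bound that cannot tell whether 2-fold was passed. Its 2.01-fold ratio of single-positive over double-negative cells lay just past the 2-fold line, with the other probe sets at log2 ratios of 0.73 and 0.53. Slc1a3, the glutamate and aspartate transporter known from astrocytes and also from bone cells, was 544 in double-positive, 198 in single-positive and 88.6 in double-negative cells. It was 2.75-fold higher in double-positive than in single-positive cells and at least 5.84-fold higher than in double-negative cells, and its 3 probe sets above the floor gave log2 ratios from 1.46 to 1.99 in the first of these. For single-positive over double-negative cells its ratio of at least 2.12-fold came from 1 probe set. The others had log2 ratios of 0.01, a bound, and 0.05.

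Slc1a4 and Slc1a5, exchangers of alanine, serine and cysteine and, for Slc1a5, glutamine, were both lowest in single-positive cells. Slc1a4 was 1324 in double-positive, 659 in single-positive and 1954 in double-negative cells. It was 2.97-fold lower in single-positive than in double-negative cells, and all 3 of its probe sets were past 2-fold there. It was 2.01-fold higher in double-positive than in single-positive cells by its brightest probe set, with the others at log2 ratios of 0.62 and 0.57. Slc1a5 was 3123 in double-positive, 1760.2 in single-positive and 3462 in double-negative cells. Its ratios of 1.97-fold lower in single-positive than in double-negative cells and 1.77-fold higher in double-positive than in single-positive cells stayed under 2-fold. Slc1a7, known from the retina, lay near the floor at 97.1 in double-positive, 75.7 in single-positive and 114 in double-negative cells. The glutamate transporters Slc1a2 and Slc1a6, known from the brain, were under the floor on all 3 arrays.

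The heavy chain Slc3a2 and its light chain Slc7a5 had the same order of populations. Slc3a2, also known as CD98, was 3841 in double-positive, 5009 in single-positive and 7383 in double-negative cells. At 1.92-fold lower in double-positive than in double-negative cells it stayed within 2-fold. Slc7a5, which with Slc3a2 forms the LAT1 exchanger for leucine and other large neutral amino acids, was 287 in double-positive, 607 in single-positive and 1588 in double-negative cells. Among transporters above the floor on all 3 arrays, it alone was at least 2-fold apart in each comparison: 2.12-fold lower in double-positive than in single-positive cells, 2.61-fold lower in single-positive than in double-negative cells and 5.54-fold lower in double-positive than in double-negative cells. With arrays scaled to a common median the first of these was within 2-fold, at a log2 ratio of −0.95. Each rests on 1 probe set per gene. Dividing-cell markers were lower in both PDGFRα+ populations than in double-negative cells: 5 of 5 measured were at least 2-fold lower in single-positive and 5 of 5 in double-positive cells, and of 6 erythroid markers compared, 4 were lower in single-positive and 5 in double-positive cells. Their part in the differences of Slc7a5 and Slc3a2, or of Slc7a1, Slc43a3 and Slc1a4, all highest in double-negative cells, was not tested. Between the PDGFRα+ arrays, 1 of 5 dividing-cell markers was higher and 1 lower in double-positive cells. None of 6 erythroid markers passed 2-fold there, but only 2 were above the floor in double-positive cells, so the other ratios were bounds. The part of these markers was not tested in that comparison either.

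Other light chains differed less. Slc7a6, an exchanger of cationic and neutral amino acids, was 1221 in double-positive, 1229.8 in single-positive and 1692 in double-negative cells. Its relative Slc7a7 was 331 in double-positive, 437 in single-positive and 301 in double-negative cells. Slc7a8, a second partner for neutral amino acids, passed the floor only in single-positive cells, with 59.3 in double-positive, 147 in single-positive and 60.4 in double-negative cells. Slc7a6 and Slc7a7 were within 2-fold in all comparisons. For Slc7a8 the floor allows only the bound of at least 1.58-fold lower in double-positive than in single-positive cells and at least 1.58-fold higher in single-positive than in double-negative cells, and with the floor at the 33rd percentile the log2 ratios were −1.31 and 1.29, past 2-fold. The genes of the alanine-serine-cysteine exchanger Slc7a10, the cystine-glutamate exchanger Slc7a11 and the kidney pair Slc3a1 and Slc7a9 were under the floor on all 3 arrays. So were Slc7a12, Slc7a13, Slc7a14, Slc7a15 and Slc6a15, which makes 11 of 44 genes with Slc1a2 and Slc1a6.

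Of the cationic amino acid transporters, Slc7a1, the main carrier of arginine and lysine in many cells, was 2648 in double-positive, 6312 in single-positive and 10009 in double-negative cells. It was 2.38-fold lower in double-positive than in single-positive cells and 3.78-fold lower than in double-negative cells, and its second probe set above the floor gave log2 ratios of −1.56 and −2.00. Slc7a2, an arginine carrier induced in inflammation, was 794 in double-positive, 621 in single-positive and 649 in double-negative cells. Its brightest probe set was within 2-fold, but 2 of 3 compared were past 2-fold lower in double-positive than in single-positive cells, with the lowest log2 ratio at −1.31. Slc7a3, a cationic carrier known from the brain, was 80.0 in double-positive, 135 in single-positive and 177 in double-negative cells. It was at least 1.90-fold lower in double-positive than in double-negative cells, a bound under 2-fold, and with the floor at the 33rd percentile that log2 ratio was −1.15. Slc7a4, a relative of these carriers, was 198 in double-positive, 187 in single-positive and 164 in double-negative cells, within 2-fold in all comparisons.

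The last group joins Slc43, Slc6 and Slc16 genes. Slc43a3, named for its family but known as a carrier of purine bases and not of amino acids, was 682 in double-positive, 1580.4 in single-positive and 2950.2 in double-negative cells. It was 2.32-fold lower in double-positive than in single-positive cells and 4.32-fold lower than in double-negative cells, in the same order as Slc7a5, Slc7a1 and Slc3a2. Slc43a1 and Slc43a2, facilitated carriers of large neutral amino acids, stayed within 2-fold by their brightest probe sets. Slc43a1 was 237 in double-positive, 137 in single-positive and 175 in double-negative cells. Slc43a2 was 587 in double-positive, 556 in single-positive and 353 in double-negative cells. Another probe set of Slc43a2 gave log2 ratios of −1.10 for double-positive over single-positive and 1.46 for single-positive over double-negative cells.

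The taurine transporter Slc6a6 was 1734 in double-positive, 1566 in single-positive and 3039.5 in double-negative cells, 1.94-fold lower in single-positive than in double-negative cells. For the other 2 probe sets compared, that log2 ratio was −1.50 and, as a bound, −0.11. Slc6a9, a glycine transporter, was 466 in double-positive, 703 in single-positive and 780.0 in double-negative cells. Slc16a10, a carrier of aromatic amino acids, was 256 in double-positive, 358 in single-positive and 237 in double-negative cells. These genes did not reach 2-fold by their brightest probe sets.

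Across the 33 genes, 9 had signals ascending in the order double-positive, single-positive, double-negative: Slc38a1, Slc38a3, Slc3a2, Slc43a3, Slc6a9, Slc7a1, Slc7a3, Slc7a5 and Slc7a6. The opposite order held for 5. In single-positive cells 10 were highest and 8 lowest, and Slc38a5, under the floor in 2 populations, has no order between them. These orders take any difference, however small, such as 1221 against 1229.8 for Slc7a6 in the PDGFRα+ populations. They were not counted over all genes and do not set the transporters apart. Slc38a4, Slc36a2 and Slc1a1 were at least 2-fold higher in single-positive cells than in both others, 3 of 33, where 2.46% of 12211 genes were. In double-positive cells 7 of 33 were at least 2-fold below both others, the 7 lower genes of the comparison with single-positive cells, where 6.96% of all genes were. Chondrocyte, osteoblast and osteocyte markers also had their highest summed signals in single-positive cells, but not every marker did. The cartilage matrix gene Matn1 was 115 in double-positive, 18704 in single-positive and 2331 in double-negative cells. Dmp1, an osteocyte matrix gene, was 39.1 in double-positive, 12889.9 in single-positive and 426 in double-negative cells. Against double-negative cells, 2 of 7 chondrocyte, 2 of 5 osteoblast and 2 of 2 osteocyte markers compared were at least 2-fold higher, where 4.82% of all genes were. The other 5 chondrocyte markers were within 2-fold, with Acan at 26263 in single-positive and 26620 in double-negative cells. All 7 of 7 chondrocyte markers and 4 of 5 osteoblast markers were at least 2-fold lower in double-positive than in single-positive cells, and their part in the transporter differences was not tested. Slc1a3 and Slc38a7, 2 of 33, were at least 2-fold higher in double-positive cells than in both others, as were 10.6% of all genes. Fibroblast markers were higher in double-positive cells for 6 of 6 in both comparisons, where 14.9% and 14.5% of all genes were. Of macrophage and osteoclast markers, 1 of 5 was higher against single-positive and 2 of 5 against double-negative cells. Of endothelial markers 1 of 2 was higher in each, and none of either list was lower. The part of these markers was not tested either.

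Different probe sets of a gene were the only repeated readings these data offer, and they are not replicates of a population. For double-positive over single-positive cells, 10 of 16 transporter genes with several probe sets compared had all of them on the same side of 2-fold, with bounds entered at the floor. The counts were 9 of 15 for single-positive over double-negative and 13 of 16 for double-positive over double-negative cells. Genes with all probe sets within 2-fold are included, even where signs were opposite, as for Slc38a1 between the PDGFRα+ populations. Of the 10, only Slc1a1, Slc1a3, Slc38a4 and Slc7a1 had all past 2-fold. This agreement was not counted over all genes. Over all genes, the SD of log2 ratios between probe sets of a gene was 0.60, 0.37 and 0.50 in these 3 comparisons. That SD holds the scatter of probes and transcripts, with the noise of single probe sets on these arrays. It does not measure the spread between animals or repeat arrays. It was larger in both comparisons with the double-positive array, which had the highest 3' to 5' ratios of Actb and Gapdh. A link between them was not tested. Of the transporter genes past 2-fold with several probe sets compared, Slc38a1, Slc38a4 and Slc7a1 had every compared probe set past it in each comparison where the gene was called.

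**Figure D3:**
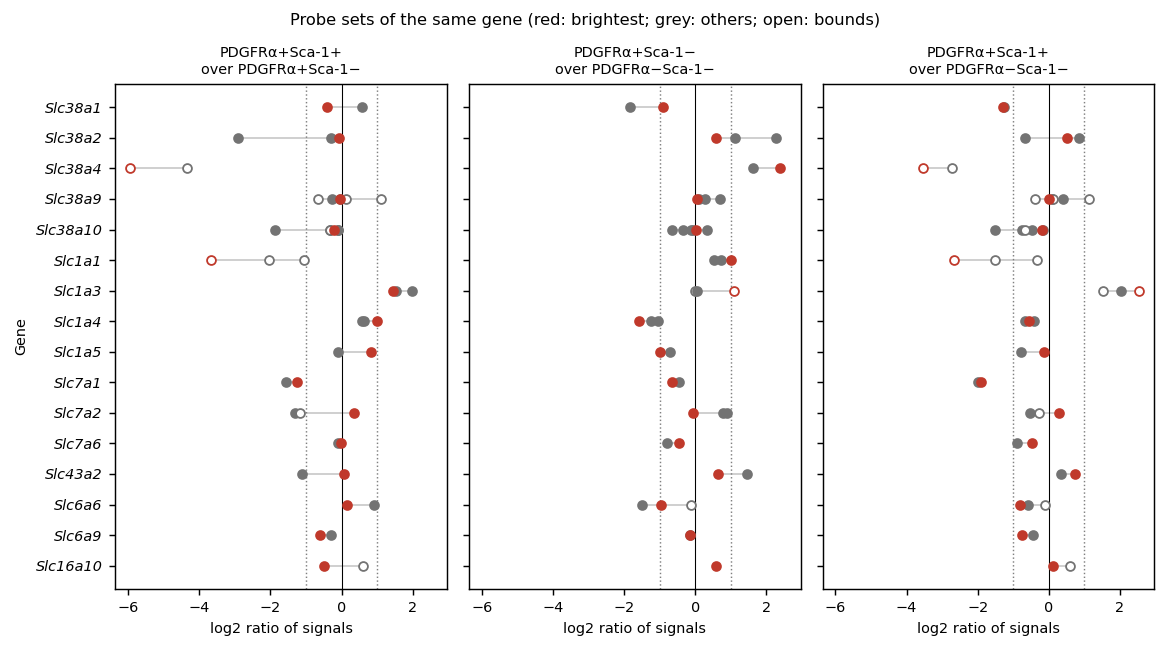
Log2 ratios of the single probe sets of 16 transporter genes with more than 1 probe set above the floor, for the 3 comparisons. Red points are the brightest probe set, grey points the others, open points are bounds, and dotted lines mark 2-fold. In double-positive over single-positive cells, probe sets lie close together for Slc7a1 and Slc7a6 and far apart for Slc38a2. Those of Slc1a1 are spread too, but all are bounds.

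Genes that handle amino acids inside the cell were set beside the transporters. In the amino acid response list, made up mainly of genes known as targets of the transcription factor ATF4, 8 of 16 genes compared were at least 2-fold lower in double-positive than in single-positive cells and 0 higher, with a median log2 ratio of −0.82, where 11.3% of all genes were lower and 14.9% higher. Atf4 itself was 13429 in double-positive, 16564 in single-positive and 13215 in double-negative cells. Asns, which makes asparagine, was 1249 in double-positive, 1334 in single-positive and 2314 in double-negative cells. Both were within 2-fold in all comparisons. Between double-positive and single-positive cells the secreted glycoprotein gene Stc2 was at least 15.5-fold, the glutathione-degrading Chac1 9.11-fold, the cysteine-making Cth 7.80-fold and the stress sensor Sesn2 4.63-fold lower. In double-positive against double-negative cells 6 of 16 were lower and 0 higher, where 12.2% of all genes were lower and 14.5% higher. In single-positive against double-negative cells 0 of 15 were lower and 2 higher, where 5.63% of all genes were lower and 4.82% higher.

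Enzymes of serine, glycine and folate metabolism were lower in single-positive than in double-negative cells for 4 of 10 genes and higher for 1, where 5.63% of all genes were lower and 4.82% higher. Mthfd2 was 2.40-fold and Mthfd1l 2.74-fold lower, while Shmt1 was 3.19-fold higher. In double-positive against single-positive cells 3 of 10 were lower and 0 higher, with Shmt1 4.02-fold and Gldc 3.03-fold lower, where 11.3% and 14.9% of all genes were. In double-positive against double-negative cells 3 were lower and 0 higher, where 12.2% and 14.5% of all genes were. Enzymes of glutamine, glutamate and proline metabolism included higher genes. Of 9 compared, 3 were higher in double-positive than in single-positive cells and 0 lower, where 14.9% of all genes were higher and 11.3% lower: glutamine synthetase Glul was 7.02-fold, glutamate dehydrogenase Glud1 2.64-fold and the aspartate aminotransferase Got2 2.30-fold higher. Glul was 12711 in double-positive, 1811 in single-positive and 3059 in double-negative cells. Slc38a3 and Slc38a4 were lowest in double-positive cells. Slc1a5, which also carries glutamine, was not, with 3123 in double-positive, 1760.2 in single-positive and 3462 in double-negative cells. Slc38a7, the lysosomal exporter of glutamine, was highest in double-positive cells, with 574 against 256 in single-positive and 229 in double-negative cells. By their brightest probe sets, Slc38a1 was lowest in double-positive cells and Slc38a2 was not. A link between Glul and these carriers was not tested. In double-positive against double-negative cells 2 of 9 were higher and 0 lower, where 14.5% and 12.2% of all genes were, and between single-positive and double-negative cells none of the 9 passed 2-fold; the ratio of Gpt2 there was −0.91 on the log2 scale.

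In the list of branched-chain, cysteine and glutathione enzymes, 11 genes were compared. Bcat1, the cytosolic enzyme that transaminates leucine, isoleucine and valine, was 322 in double-positive, 1322 in single-positive and 4509.5 in double-negative cells. It was 14.0-fold lower in double-positive than in double-negative cells, in the same order of populations as the leucine exchanger gene Slc7a5. Glutathione synthesis gene Gclc was 2.86-fold and Ggt5 2.57-fold higher in double-positive than in single-positive cells, and the cysteine dioxygenase Cdo1 6.34-fold lower. The list had 2 genes higher and 3 lower in double-positive against single-positive cells, where 14.9% and 11.3% of all genes were. It had 1 higher and 1 lower in single-positive against double-negative cells, where 4.82% and 5.63% of all genes were, and 2 higher and 3 lower in double-positive against double-negative cells, where 14.5% and 12.2% were.

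For double-positive over single-positive cells the median log2 ratio was −0.13 in the serine, glycine and folate list, 0.13 in the glutamine list and 0.17 in the branched-chain list, against 0.07 over all genes.

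Of 25 genes of mTORC1 and its amino acid sensors, 1 was higher and 1 lower in double-positive against single-positive cells, where 26.2% of all genes passed 2-fold in either direction. None was called in single-positive against double-negative cells, where 10.4% of all genes were, and 1 was higher and 1 lower in double-positive against double-negative cells, where 26.6% of all genes passed 2-fold. The exceptions were Sesn2, lower in double-positive cells in both comparisons, Castor1, the arginine sensor, 2.96-fold higher in double-positive than in single-positive cells, and Rragd, at least 2.47-fold higher in double-positive than in double-negative cells. The median log2 ratio of the list was 0.21 for double-positive over single-positive cells. Sesn1, a relative of Sesn2, had a log2 ratio of 0.97 for double-positive over double-negative cells. The 17 aminoacyl-tRNA synthetases, which load amino acids onto tRNA, were all within 2-fold between the PDGFRα+ populations and between the Sca-1− populations. Their median log2 ratio was 0.01 for double-positive over single-positive, −0.47 for single-positive over double-negative and −0.46 for double-positive over double-negative cells, where Iars (2.70-fold) and Aars (2.26-fold) were lower and 0 higher, where 12.2% and 14.5% of all genes were. Among those within 2-fold, Vars had a log2 ratio of −0.97 for single-positive over double-negative cells and Tars −0.80 for double-positive over double-negative cells.

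Transporters of amino acids and peptides outside the named families were read beside the members. The betaine and GABA transporter Slc6a12 was 7.99 in double-positive, 582 in single-positive and 943 in double-negative cells, at least 6.24-fold lower in double-positive than in single-positive cells. The mitochondrial aspartate-glutamate carriers went in opposite directions, with Slc25a13 at least 4.11-fold lower and Slc25a12 2.44-fold higher in double-positive than in single-positive cells. Slc6a17 was 2.73-fold lower in single-positive than in double-negative cells. Of the 13 genes compared between double-positive and single-positive cells 2 were higher and 2 lower, where 26.2% of all genes passed 2-fold. Of 13 between single-positive and double-negative cells 0 were higher and 1 lower, where 10.4% of all genes passed, and of 14 between double-positive and double-negative cells 1 was higher and 3 lower, where 26.6% did. The median log2 ratio for double-positive over single-positive cells was 0.23.

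**Figure D4:**
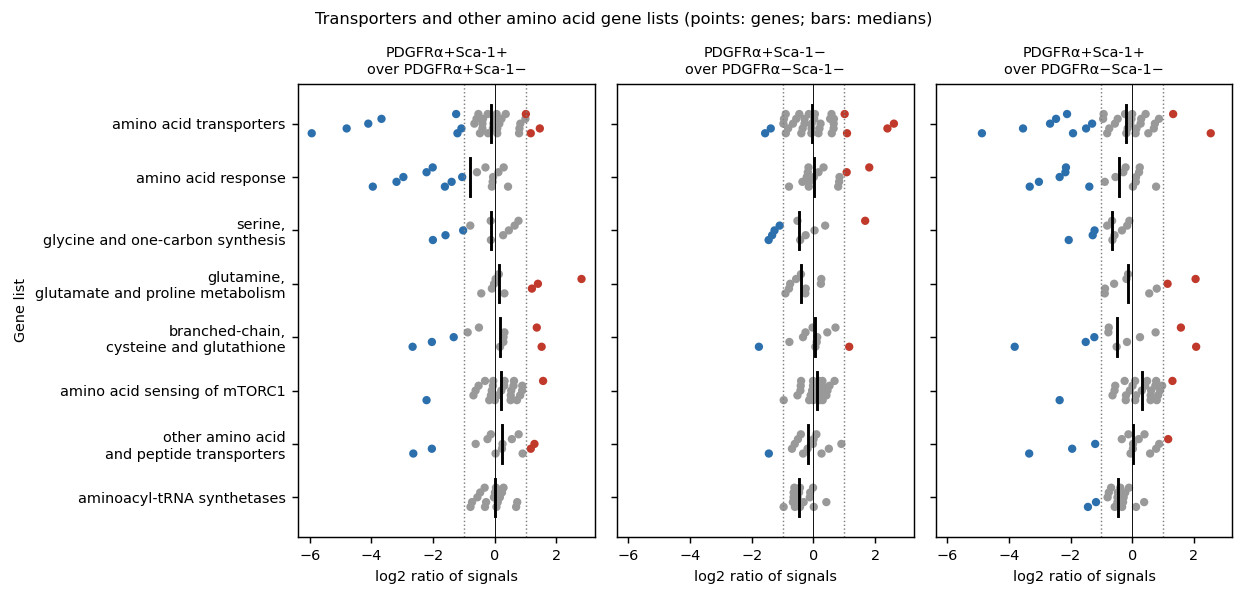
Log2 ratios of the transporter genes (top row) and 7 other amino acid gene lists in the 3 comparisons. Points are genes, with bounds entered at the floor, black bars are medians, dotted lines mark 2-fold, and red and blue mark genes at least 2-fold higher and lower. The amino acid response list has 8 points left of the 2-fold line for double-positive over single-positive cells, and the mTORC1 list clusters around 0.

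Promoter windows were read for sequence shared between the members. RefSeq windows on GRCm38.p6, from 250 bases before to 50 after a transcript start, were matched by symbol for 31 of the 44 genes. They were searched on both strands for the C/EBP-ATF response element, spelled TGATGNAA, through which ATF4 is known to act on amino acid genes, and for the E-box CACGTG, a palindrome known from MYC targets. These motifs do not overlap each other in the windows printed here. The first was found in 3.97% of all 32851 windows, or 4.51% of the 27025 genes they belong to, and for 3 of the 31 transporter genes, Slc1a4, Slc7a7 and Slc7a11. The second was found in 7.15% of all windows, or 8.09% of genes, and for 7 of the 31. These were Slc1a6, Slc1a7, Slc36a1, Slc38a5, Slc38a7, Slc43a1 and Slc7a14. A match describes the letters and shows no binding. The windows below are those of Slc38a4, with the widest difference, of Slc1a4 and Slc7a11, which hold the response element, and of Slc38a7, which holds an E-box; capitals mark the matches, of which the first window has none.
Slc38a4, outermost of 3 starts, minus strand of chr15:97055907-97056206: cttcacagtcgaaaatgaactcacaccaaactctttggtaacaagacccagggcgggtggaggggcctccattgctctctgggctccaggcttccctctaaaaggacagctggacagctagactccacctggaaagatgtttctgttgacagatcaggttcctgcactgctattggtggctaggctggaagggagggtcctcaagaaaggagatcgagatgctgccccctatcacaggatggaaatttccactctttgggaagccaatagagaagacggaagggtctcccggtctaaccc
Slc1a4, minus strand of chr11:20332664-20332963: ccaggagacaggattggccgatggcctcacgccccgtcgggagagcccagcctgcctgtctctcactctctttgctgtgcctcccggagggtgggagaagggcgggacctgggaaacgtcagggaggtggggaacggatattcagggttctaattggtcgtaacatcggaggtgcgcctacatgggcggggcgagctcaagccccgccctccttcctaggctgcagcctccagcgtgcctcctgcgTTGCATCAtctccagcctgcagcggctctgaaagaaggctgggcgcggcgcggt
Slc7a11, minus strand of chr3:50443564-50443863: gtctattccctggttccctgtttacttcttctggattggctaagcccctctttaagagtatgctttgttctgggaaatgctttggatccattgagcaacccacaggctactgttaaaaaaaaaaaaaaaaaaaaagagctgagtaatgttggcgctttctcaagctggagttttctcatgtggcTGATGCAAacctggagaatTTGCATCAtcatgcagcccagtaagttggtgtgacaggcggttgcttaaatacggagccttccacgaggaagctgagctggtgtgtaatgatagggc
Slc38a7, minus strand of chr8:95853442-95853741: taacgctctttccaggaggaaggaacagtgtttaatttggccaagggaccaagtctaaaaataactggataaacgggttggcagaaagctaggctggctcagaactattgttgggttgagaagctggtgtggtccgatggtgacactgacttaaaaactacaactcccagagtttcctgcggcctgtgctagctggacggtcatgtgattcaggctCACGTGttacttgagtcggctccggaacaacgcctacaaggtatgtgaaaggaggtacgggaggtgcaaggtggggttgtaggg

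The Slc38a4 window, with 53.0% G and C and 5 CpG, held neither motif, nor did those at its other starts. Over all windows the medians were 52.7% and 7 CpG. Slc1a4, lowest in single-positive cells, has a GC-rich window (65.0%, 21 CpG) with 1 match on the opposite strand beginning at −4 from the transcript start. Slc7a11 has 2 matches on opposite strands, beginning at −66 and −47, and both of its probe sets were under the floor on all 3 arrays. The E-box of Slc38a7, the lysosomal exporter highest in double-positive cells, begins at −34. Of the 7 genes with an E-box, Slc38a7 alone reached 2-fold with the floor as given, and Slc1a6 and Slc7a14 were under it throughout. The transporters that were lowest in double-positive cells were not all matched: Slc38a3, Slc36a2, Slc43a3 and Slc7a5 have no window in the table used here, and those of Slc1a1 and Slc7a1 held neither motif.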

How the data were processed

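Per the labels' protocols, RNA went through 2 rounds of amplification with biotin labelling before hybridisation, 1 array for each population. What the authors deposited is a linear intensity for every probe set, computed with MAS5 per the submitters' processing notes. The MAS5 version is not given in the sources used here, and no detection calls were used. The 2% trimmed mean of the deposited intensities was 500.0 on each array. After 64 control probe sets were set aside, the remaining 45037 were rescaled to the same 2% trimmed mean on each array. Values below the floor of 93.2 were set to the floor ahead of the log2 step. Names came from the platform annotation: 34945 probe sets had 1 symbol, 932 several and 9160 none, and 34741 were matched to RefSeq (GRCm38.p6, names only), which changed 0 symbols. A probe set shared by Slc1a2 and another gene was left out. The probe set brightest on average over the arrays, on the log2 scale, stood for its gene.

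With 1 array per population no p-value, error over replicates or test was possible, and the number of arrays limits the precision. A gene below the floor on both arrays of a comparison was not compared, and 2-fold was the smallest ratio counted. Every transporter gene above the floor is given with its signals. From each other list up to 4 genes with the largest ratios are named, and Atf4 and Asns were added after their values were seen, as was the E-box search. The members, gene lists and markers were chosen with earlier results of these data known. The counting was tested on simulated data with 200 changed genes, all well above the floor, and an assumed noise. Recovery was required only of changes larger than 2-fold, so the simulation does not vouch for ratios near 2-fold or for bounds. Alternatives were other floors, scalings, probe set rules and fold thresholds. Python 3.11.15, numpy 2.4.6, pandas 2.3.3 and scipy 1.17.1 were used.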

Additional observations from a re-analysis of the deposited data

How the results depend on the processing

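The 26 member ratios of 2-fold or more were recomputed under other floors, scalings and the mean over probe sets. Of the 155 values, 146 stayed at 2-fold or more in the same direction, 9 came within 2-fold and 0 changed direction. With the floor at the 67th percentile the log2 bound for Slc36a2 in double-positive over double-negative cells was −0.04, because the floor then lay just under its double-negative signal. With the mean over probe sets, Slc1a3 had log2 ratios of 0.83 for double-positive over single-positive and 0.19 for single-positive over double-negative cells. In the same setting Slc1a4 had 0.73 and Slc7a1 −0.94 for double-positive over single-positive, and Slc1a1 0.75 for single-positive over double-negative cells. That mean also takes in probe sets under the floor on all arrays, entered at the floor, which narrows the ratios. Slc1a3 and Slc7a1 have such probe sets, while all their others were past 2-fold for double-positive over single-positive cells. With a common median, Slc7a5 had −0.95 for double-positive over single-positive and Slc1a1 0.99 for single-positive over double-negative cells, and with quantile normalization Slc1a4 had 0.94 for double-positive over single-positive cells.

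Counts moved by more than 1.5 times under some settings. With the mean over probe sets, 1 gene was higher in double-positive than in single-positive cells instead of 3. Counting every probe set on its own gave 48, 57 and 56 above the floor in double-positive, single-positive and double-negative cells, with 6 higher and 16 lower in double-positive against single-positive, 8 and 6 in single-positive against double-negative, and 5 and 13 in double-positive against double-negative cells. A 3-fold threshold left 0 higher and 4 lower in double-positive against single-positive, 2 and 0 in single-positive against double-negative, and 1 higher in double-positive against double-negative cells. A 1.5-fold threshold gave 7 higher in double-positive against single-positive, 8 higher and 8 lower in single-positive against double-negative, and 5 higher in double-positive against double-negative cells. Shares of all genes or probe sets called under these settings are not given here, so these counts do not set the transporters apart. The other counts stayed within 1.5 times, and the medians moved by less than the scatter between probe sets. Signals near the floor limit Slc1a7, Slc36a3, Slc38a5, Slc7a3 and Slc7a8; with the floor at the 33rd percentile Slc38a5 had a log2 bound of −1.24 for both others over double-negative cells, past 2-fold. No paired analysis was possible because each population has 1 array, and no array could be left out.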
